A study of Bubalus bubalis with 36 samples.

Results

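MicroRNAs (miRNAs) best known from liver, kidney and gut were followed through 6 fat depots of the water buffalo. The members were the rows named bta-miR-122, bta-miR-192, bta-miR-194, bta-miR-204 and bta-miR-215, with any arm suffix or none. The table held 5 such rows among 1682 features, and all 5 were among the 667 features that passed the filter on low counts. Small RNA was sequenced from 6 animals, each sampled at the same 6 depots, for 36 libraries. Fat under the skin was taken over the sternum (SSAT), along the back (BSAT) and in the groin (inguinal, IAT). Visceral fat came from around the kidney (perirenal, PRAT), from the omentum (OAT) and from the heart sac (pericardial, PCAT), with 6 libraries in each depot. All animals had been weaned at 3 months, were fattened from 15 months and were slaughtered at 20 months of age, and the labels name no treatment. A library is called here by its depot and animal, so that PRAT6 is the perirenal fat of animal 6.

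miRNAs are short RNAs that lower the output of the messenger RNAs they pair with. miR-122 is the hallmark miRNA of hepatocytes, where it takes part in cholesterol and lipid metabolism, and it also circulates in plasma. miR-192 and miR-215 belong to 1 family and share a seed, and miR-192 and miR-215 are each transcribed in a cluster with a copy of miR-194. miR-192, miR-194 and miR-215 are abundant in liver, kidney and gut epithelium, where HNF family factors drive them. miR-204 lies in an intron of TRPM3 and is known from kidney, from the eye and from mesenchymal cells, in which it favours fat cell over bone cell formation. Perirenal fat surrounds the kidney, omental fat hangs from the stomach and pericardial fat lies on the heart sac.

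Library totals ran from 9484589 to 13920998 counts. Levels are given as CPM, the counts scaled to a common library size, with sizes corrected by the trimmed mean of M values (TMM). The library names carry a letter whose meaning the labels do not give. The letter was A in 8 libraries, 7 of them visceral, and B in 28. All 6 miRNAs of an adipose list (miR-143, miR-378, miR-103, miR-107, miR-193b and miR-335) were in the table, and their summed level was 8350 to 91702 CPM per library. In PRAT6, which had the highest sum, 88573 CPM of it was miR-143. The samples are whole tissue, so fewer cells of a type and less of its RNA per cell cannot be told apart.

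The levels of the members differed in kind. miR-204, miR-192, miR-194 and miR-215 were counted in every library. miR-192 ranged from 332 CPM in BSAT3 to 1513 CPM in PRAT2, and miR-194 from 54.6 CPM in PCAT2 to 804 CPM in SSAT1. miR-204 ranged from 646 CPM in SSAT2 to 19981 CPM in SSAT5. miR-215 was scarce, with 914 counts in all libraries together. miR-122 was below 1 CPM in 23 of 36 libraries and at or above 10 CPM in 5.

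miR-122 was called higher in perirenal fat than in the other depots. It was called lower in subcutaneous than in visceral fat in the fit without the animal, but not with the animal as a block. Most of the miR-122 counts came from 1 animal. In perirenal fat it stood at 3.57 CPM in PRAT1, 4.06 in PRAT2, 1.21 in PRAT3, 2.42 in PRAT4, 22.5 in PRAT5 and 283 in PRAT6. The lowest of these lay above 24 of the 30 other libraries, and none of the others reached PRAT6. The mean was 52.8 ± 113 CPM (SD, n = 6) in perirenal fat and 2.54 ± 6.03 CPM (SD, n = 30) elsewhere, so the SD exceeded the mean in both.

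Outside perirenal fat, the typical level of miR-122 was near the limit of counting. The lowest, median and highest values were 0.0802, 0.391 and 0.810 CPM in back fat. In sternal fat they were 0, 0.277 and 1.05 CPM. In inguinal fat they were 0, 0.453 and 11.6 CPM. Of these subcutaneous depots, inguinal fat alone had libraries above 1.05 CPM. In omental fat the lowest, median and highest values were 0.0861, 0.423 and 29.8 CPM. Pericardial fat had 0, 0.391 and 10.1 CPM. The ranges of all 5 depots overlapped one another and, apart from back and sternal fat, that of perirenal fat. No miR-122 was counted in SSAT1, IAT4 and PCAT1, where a floor of 3 counts stands for 0.279, 0.268 and 0.250 RPM (counts scaled to the plain library total), for counting error only.

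**Figure D1:**
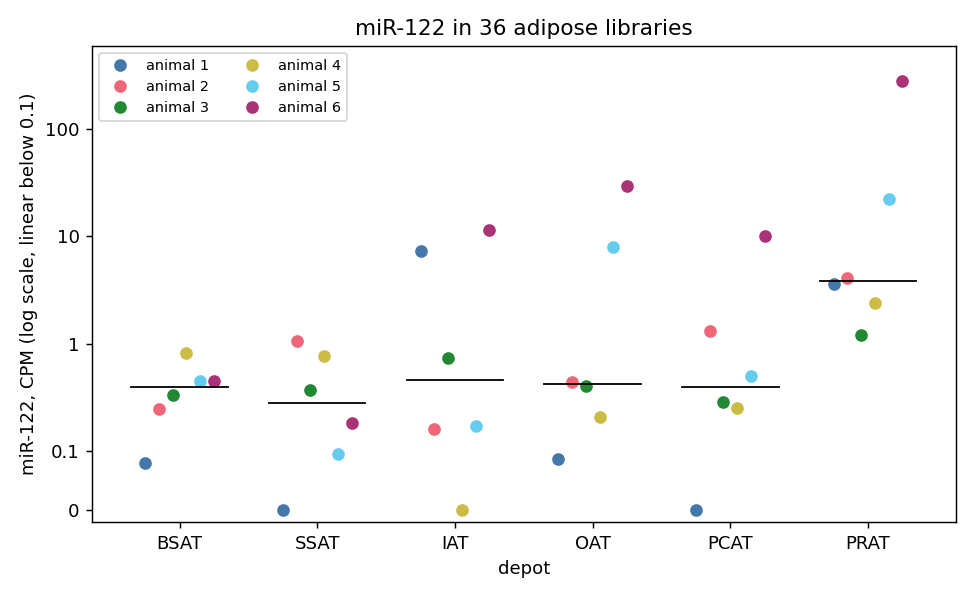
CPM of miR-122 in 36 libraries by depot, on a log axis that is linear below 0.1. Each point is a library coloured by animal and each bar is the depot median. The 6 perirenal libraries run from 1.21 to 283 CPM, and the animal 6 points are the highest in 4 of 6 depots.

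In edgeR's quasi-likelihood test, miR-122 was higher in perirenal fat than in the mean of the other 5 depots by 5.13 ± 0.84 on the log2 scale (SE, adjusted p = 2.35e-04), and in 6 of 6 animals. It was the 1 member called of 5 in that comparison, in which 3.15% of all tested features were called. Between subcutaneous and visceral fat the log2 difference was −3.44 ± 0.86 (adjusted p = 0.00621), lower in subcutaneous fat in 5 of 6 animals. It was again the 1 member called, beside 16.5% of all features. Across all 6 depots the adjusted p was 0.00197. Here 2 members were called, miR-122 and miR-204, beside 13.9% of features. The depot comparisons share libraries with one another, so they are not independent.

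These calls leaned on animal 6. PRAT6 held 2600 of the 3963 miR-122 counts, or 65.6%, and the 6 libraries of animal 6 held 82.8%. PRAT6 had 274 RPM (exact 95% Clopper-Pearson interval 263.7 to 284.9, counting error only). Without PRAT6 the perirenal difference was 2.18 (adjusted p = 0.162), the class difference −2.43 (adjusted p = 0.0290) and the adjusted p across depots 0.0723. Without animal 6 the perirenal difference was 3.13 and still called, the class difference was −1.44 (adjusted p = 0.202), and the adjusted p across depots was 0.0642. With the animal as a block the perirenal difference was 3.39 (adjusted p = 0.00728) and the class difference −1.49 (adjusted p = 0.194). The class call was also lost with counts summed by animal and class in a blocked fit (−1.85, adjusted p = 0.195) and by limma on log2(RPM + 1) (−1.32, adjusted p = 0.0629), and the call across depots by limma (adjusted p = 0.0963). Over all alternatives run, the adjusted p of the perirenal difference lay between 2.63e-05 and 0.162, and that of the class difference between 2.89e-04 and 0.202. Within the libraries of letter B, the perirenal difference was 6.36 (adjusted p = 1.55e-04) and the class difference −3.35 (adjusted p = 0.0241). Letter A covered PRAT1, PRAT2 and PRAT4, and held too few subcutaneous libraries for a value.

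Between the animals, miR-122 differed with depot held in the fit (adjusted p = 0.0232), the 1 member called of 5, beside 11.7% of all features. Animal 6 had 283 CPM in perirenal, 29.8 in omental, 11.6 in inguinal and 10.1 in pericardial fat. Its back and sternal fat had 0.450 and 0.183 CPM, within the range of the other animals. Animal 5 had 22.5 CPM in perirenal and 8.05 CPM in omental fat, and animal 1 had 7.31 CPM in inguinal fat. High miR-122 was thus seen in some depots of an animal and not in others. The call was lost without PRAT6 (adjusted p = 0.0997), OAT6 (0.0633) or PCAT6 (0.0711), without animal 3 (0.0743) or animal 6 (0.537), among letter B libraries (0.302) and with no filter on low counts (0.0784). Over all alternatives the adjusted p ran from 8.64e-04 to 0.537.

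**Figure D2:**
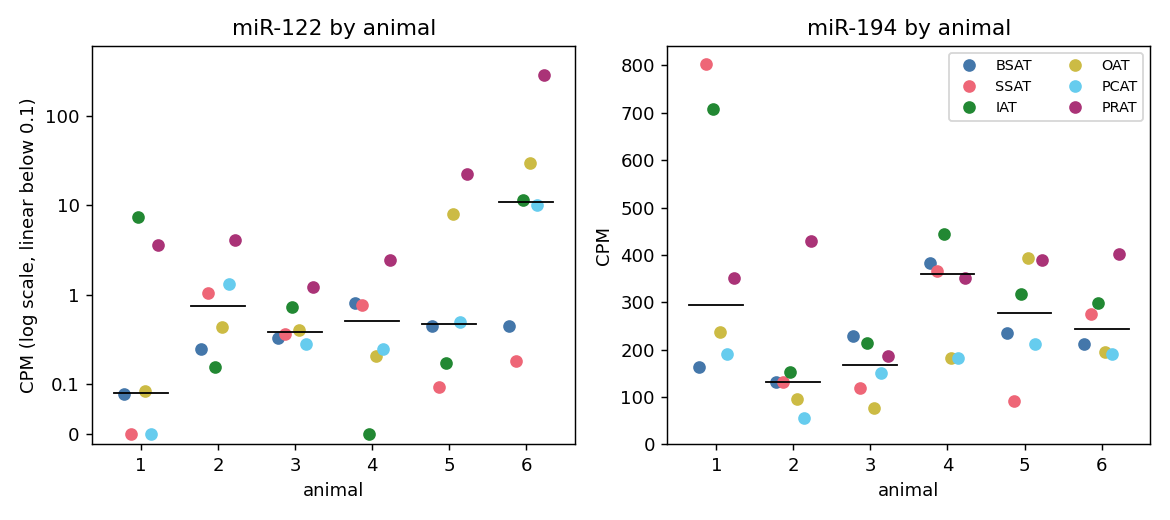
CPM of miR-122 (left, log axis that is linear below 0.1) and of miR-194 (right, linear axis) by animal. Points are libraries coloured by depot and bars are medians of 6. miR-122 of animal 6 runs from 0.183 to 283 CPM, and miR-194 of animal 1 reaches 804 and 708 CPM in sternal and inguinal fat.

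The other liver miRNA measured shared the depot of miR-122 but not its highest library. miR-885, another miRNA known from liver, was called higher in perirenal fat (log2 difference 1.58 ± 0.33, adjusted p = 0.00290) and lower in subcutaneous fat (−1.13 ± 0.28, adjusted p = 0.00579). Its perirenal values were 9.32, 7.40, 5.11, 9.76, 5.53 and 2.94 CPM in animals 1 to 6. PRAT6, with the most miR-122, thus had the least miR-885 of the perirenal libraries and ranked 15 of 36. The liver list named miR-802 as well, but the table held no row of that name.

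Blood cell miRNAs were high in some of the libraries with much miR-122 and not in others. PRAT6 ranked 16 of 36 in the summed red blood cell miRNAs (miR-451, miR-486, miR-144; 47078 CPM) and 5 in the leukocyte miRNAs (miR-142, miR-150, miR-223, miR-155; 13953 CPM). OAT6 had the highest leukocyte sum, 46838 CPM, and IAT6 the third highest, 25879 CPM. Most of these was miR-150, with 43377 CPM in OAT6 and 22248 CPM in IAT6. In PRAT6, miR-142, miR-150 and miR-155 were above their medians of 36 libraries. miR-223 was below its median there, with 11.4 against 16.5 CPM. PCAT6 ranked 4 of 36 in the red blood cell sum, with 91487 CPM, of which miR-451 was 91310 CPM. Back fat had the highest mean red blood cell sum, 98110 ± 53711 CPM (SD, n = 6), with miR-122 at 0.395 ± 0.246 CPM. PRAT6 also had the highest miR-143, 88573 CPM. The part of blood or of liver RNA in the miR-122 level was not tested.

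miR-192 was highest in perirenal fat, without a call. Its lowest, median and highest values there were 664, 836 and 1513 CPM, and 21 of 30 other libraries lay below the lowest. The perirenal mean was 921 ± 302 CPM (SD, n = 6), against 606 ± 151 CPM (SD, n = 30) in the other depots. The other depot means were 653 ± 160 CPM in omental, 622 ± 221 in back, 617 ± 147 in inguinal, 605 ± 141 in pericardial and 535 ± 86.4 in sternal fat (SD, n = 6 each). On the scale of log2 CPM, every one of the 6 animals had more miR-192 in perirenal fat than in the mean of its other depots. In animal 1, PRAT1 with 664 CPM was still below OAT1 with 745 CPM and PCAT1 with 855 CPM. The log2 difference was 0.61 ± 0.18 (adjusted p = 0.0523), just outside the threshold of 0.05. With the animal as a block it was 0.64 (adjusted p = 0.0513), also without a call.

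The perirenal difference of miR-192 depended on the setting and on PRAT2. It was called with library totals alone (0.71, adjusted p = 0.0163), under a filter of at least 10 CPM on the mean (0.0226), by limma on log2(RPM + 1) (0.67, 0.0429) and by DESeq2 (0.0393). Without PRAT2 it was 0.44 (adjusted p = 0.263). The other perirenal libraries averaged 803 ± 96.0 CPM (SD, n = 5). Between the classes the log2 difference of miR-192 was −0.28 ± 0.14 (adjusted p = 0.176), lower in subcutaneous fat in 5 of 6 animals. It was called with library totals alone (−0.48, adjusted p = 0.0151) and by limma on log2(RPM + 1) (−0.48, adjusted p = 0.0157). The median of all features was −0.09 in the edgeR fit with TMM, −0.29 with library totals and −0.18 by limma. Across depots its adjusted p was 0.153, and 0.0328 with library totals alone. Between animals it was 0.719.

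PRAT2 stood apart in epithelial miRNAs too. The list of epithelium and mesothelium, led by the miR-200 family, summed to 2816 CPM there and to 15.5 to 168 CPM in the other perirenal libraries. miR-200a was at 1562 CPM and miR-429 at 995 CPM in PRAT2, the highest of 36 libraries. All 5 tested members of that list were called higher in perirenal and lower in subcutaneous fat, beside 3.15% and 16.5% of all features. Pericardial fat had a higher median sum of the list, 272 CPM against 107 CPM in perirenal fat. miR-200a and miR-200b were called higher in pericardial fat too. miR-122 was 4.06 CPM in PRAT2, near the perirenal median of 3.82 CPM. The part of epithelium in the miR-192 value was not tested.

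**Figure D3:**
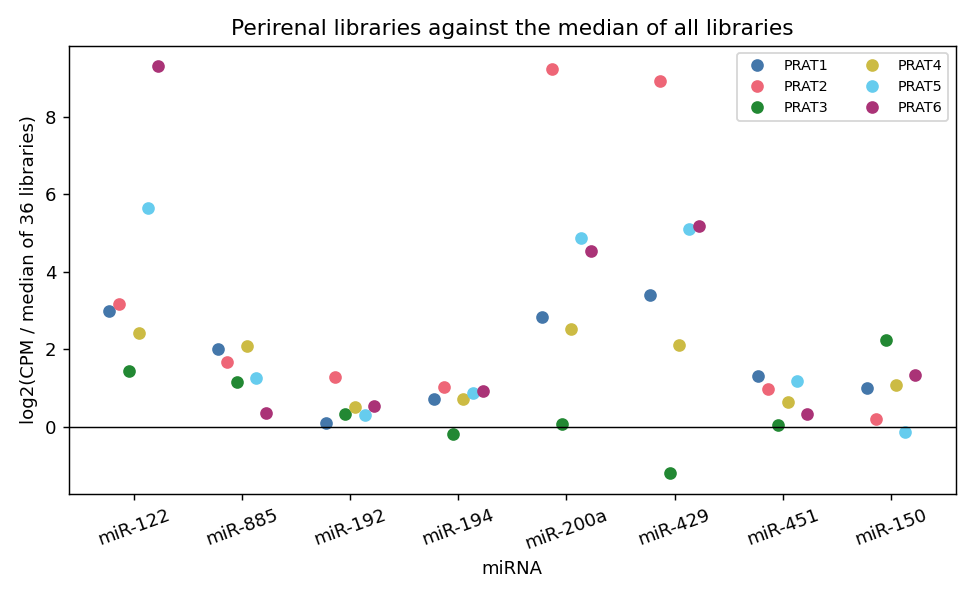
log2 of CPM over the median of 36 libraries for 8 miRNAs in the 6 perirenal libraries, each point 1 library coloured by animal. PRAT6 is highest for miR-122, PRAT2 for miR-192, miR-194, miR-200a and miR-429, and PRAT6 is lowest for miR-885.

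miR-194 was called in no depot, and its adjusted p across the 6 depots was 0.233. Its lowest, median and highest values were 186, 370 and 430 CPM in perirenal fat. In inguinal fat they were 152, 309 and 708 CPM. In pericardial fat they were 54.6, 187 and 211 CPM, and 18 of 30 other libraries lay above the highest of these. Sternal fat spread most, from 91.1 to 804 CPM. The perirenal log2 difference was 0.56 ± 0.33 (adjusted p = 0.452), with 6 of 6 animals higher in the mean of log2 CPM, a count that need not hold for plain CPM. Inguinal fat gave 0.58 ± 0.33, also with 6 of 6 animals higher, and pericardial fat −0.77 ± 0.37 (adjusted p = 0.213), with 0 of 6 animals higher. The classes differed by 0.36 ± 0.26 (adjusted p = 0.365). With the animal as a block, perirenal fat gave 0.73 (adjusted p = 0.164), inguinal fat 0.50 (0.649) and pericardial fat −0.74 (0.114).

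Differences of miR-194 between animals were close to the threshold for a call. Its mean over the depots was 409 ± 278 CPM in animal 1, 166 ± 134 in animal 2, 162 ± 57.9 in animal 3, 318 ± 110 in animal 4, 273 ± 117 in animal 5 and 262 ± 81.7 in animal 6 (SD, n = 6 each). SSAT1 with 804 CPM and IAT1 with 708 CPM were its highest libraries. The test between animals gave an adjusted p of 0.0506. It was called under RLE factors (0.0247), without the filter (0.0357), under the filter on the mean (0.0387), by DESeq2 (0.00203) and in 30 of 36 fits that left out a library. Over all alternatives the adjusted p ran from 0.00203 to 0.163.

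Within a library, miR-192 and miR-194 kept no fixed ratio. The ratio of their counts was lowest in SSAT1, 0.62, and highest in PCAT2, 9.08, with a median of 2.86 over 36 libraries. In perirenal fat it ran from 1.89 to 4.25. Across the 36 libraries the Spearman correlation of the pair was 0.464, and 0.398 after depot means were removed. Over all 75466 pairs of tested named miRNAs, the 5th and 95th percentiles of that correlation were −0.393 and 0.462. These libraries share animals and depots, so the correlation is a description.

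**Figure D4:**
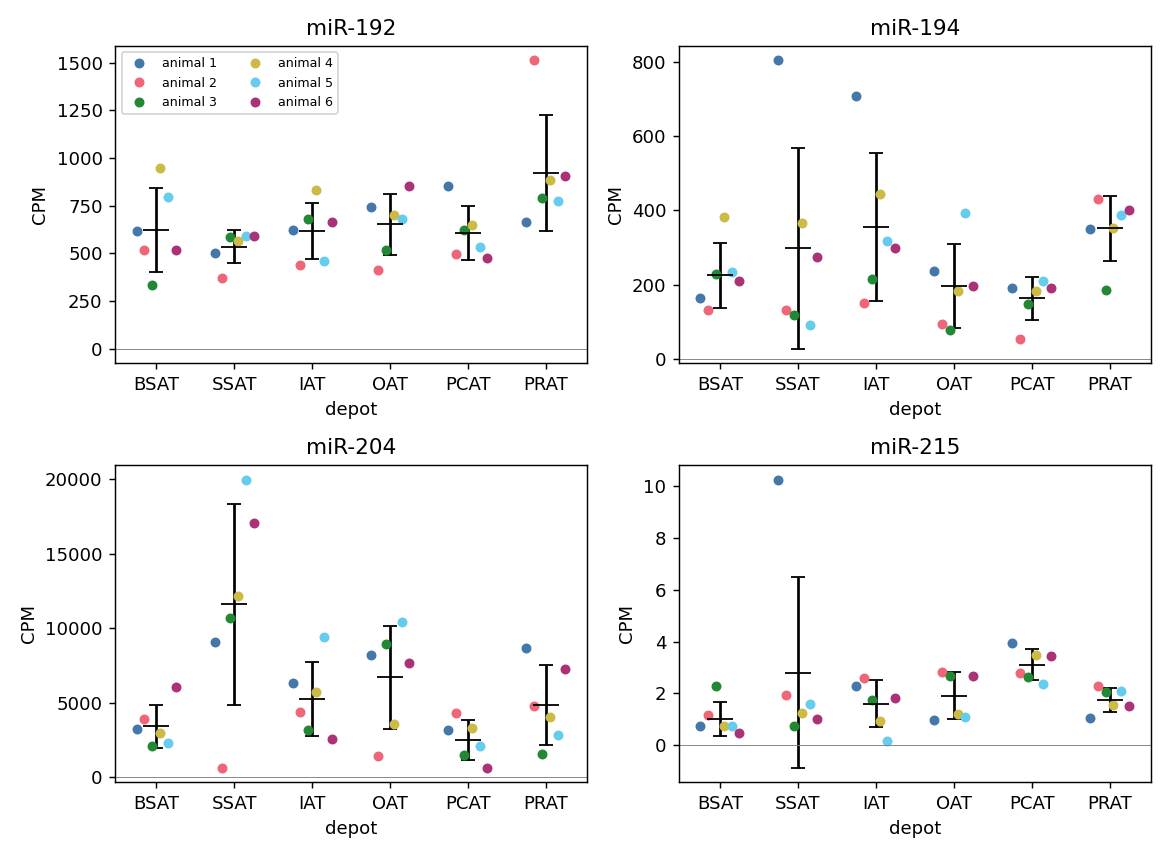
CPM of miR-192, miR-194, miR-204 and miR-215 in 36 libraries by depot, on linear axes that differ by panel. Points are libraries coloured by animal, and bars are the mean with SD of 6. PRAT2 (1513 CPM) stands above the other miR-192 values. SSAT1 is highest for miR-194 (804 CPM, with IAT1 next at 708 CPM) and stands apart for miR-215 (10.3 CPM). For miR-204, 5 of 6 sternal values are at or above 9111 CPM.

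miR-204 was higher in sternal fat. Its values there were 9111 CPM in SSAT1, 646 in SSAT2, 10674 in SSAT3, 12176 in SSAT4, 19981 in SSAT5 and 17087 in SSAT6. SSAT2 was the lowest of all 36 libraries and the other 5 sternal libraries were at or above 9111 CPM, so the range of sternal fat spanned that of every other depot. The mean was 11612 ± 6749 CPM (SD, n = 6), against 4560 ± 2693 CPM (SD, n = 30) elsewhere. The log2 difference was 1.43 ± 0.36 (adjusted p = 0.0125), higher in 5 of 6 animals. It was the 1 member called of 5, beside 9.3% of all features. Sternal libraries, at 31.5%, held the largest share of its counts by depot.

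The sternal call for miR-204 was lost by limma (0.86, adjusted p = 0.246) and without animal 4 (1.46, 0.0595) or animal 5 (1.28, 0.0525). With the animal as a block it was 1.39 (adjusted p = 0.0257), and among letter B libraries 1.54 (0.0285). Over all alternatives the adjusted p ran from 5.46e-04 to 0.246. The F test across depots gave 0.0274, and it was lost under the block (0.0706), among letter B libraries (0.0747), by limma (0.271), without SSAT4 (0.0523) or SSAT5 (0.0549), and without any of animals 1, 3, 4, 5 and 6.

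In the remaining depots miR-204 averaged 6712 ± 3452 CPM in omental, 5283 ± 2489 in inguinal, 4865 ± 2679 in perirenal, 3429 ± 1438 in back and 2509 ± 1350 in pericardial fat (SD, n = 6 each). The perirenal log2 difference of miR-204 was −0.08 ± 0.40 (adjusted p = 0.943). Pericardial fat differed by −1.22 ± 0.44 (adjusted p = 0.0785), and was called lower under the filter on the mean (−1.32, 0.0426) and by DESeq2 (−1.35, 0.0132). No member was called in pericardial fat by edgeR, where 3 had an unadjusted p under 0.05 and 9.15% of all features were called. Subcutaneous and visceral fat differed by 0.45 ± 0.30 (adjusted p = 0.306).

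miR-215 was low everywhere, with 2 to 108 counts per library. Pericardial fat had its highest median, with a range of 2.37 to 3.94 CPM, a mean of 3.11 ± 0.606 CPM (SD, n = 6) and 25 of 30 other libraries below its lowest value. The log2 difference was 0.85 ± 0.39 (adjusted p = 0.180), in 6 of 6 animals, and limma called it (0.78, adjusted p = 0.0455). SSAT1, with 108 counts and 10.3 CPM, was the highest library of all, and the other sternal libraries ran from 0.741 to 1.92 CPM. Back fat had the lowest mean, 1.01 ± 0.657 CPM (SD, n = 6), with a log2 difference of −1.08 ± 0.45 (adjusted p = 0.276). The class difference was −0.40 ± 0.31 (adjusted p = 0.407), and −0.74 (adjusted p = 0.0383) without SSAT1.

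Ordered by median CPM, the depots followed another sequence for each member. miR-122 ran perirenal, inguinal, omental, back, pericardial and sternal, and miR-192 perirenal, omental, inguinal, pericardial, sternal and back. miR-194 ran perirenal, inguinal, back, sternal, omental and pericardial. miR-204 ran sternal, omental, inguinal, perirenal, back and pericardial, and miR-215 pericardial, omental, perirenal, inguinal, sternal and back. Of the 25 neighbouring steps in these orders, all 25 had overlapping ranges. In 1 of them, pericardial over omental for miR-215, the means differed by more than the larger SD.

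No member was called in back, inguinal or omental fat by edgeR, beside 2.25%, 0.3% and 1.5% of all features. An unadjusted p under 0.05 was reached by 2 members in back fat and by 0 in inguinal and omental fat, and DESeq2 called 1, 0 and 0. The members' median log2 difference was 0.56 in perirenal fat, where that of all features was 0.03. It was −0.68 against −0.02 in back fat, 0.27 against −0.11 in sternal fat, −0.46 against −0.01 in pericardial fat, 0.07 against −0.05 in inguinal fat and 0.01 against 0.10 in omental fat. Between the classes it was −0.28 against −0.09. In the list of kidney and gut epithelium, all 8 precursors were in the table and 9 rows were tested. Its called row was miR-204, in sternal fat and across depots, beside 9.3% and 13.9% of all features. In perirenal fat 0 of its rows were called, beside 3.15% of all features, so that count is near the share of all features.

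The miRNAs whose levels followed each member most closely over the 36 libraries were named by Spearman correlation of log2 CPM. For miR-122 they were miR-150 (0.497), miR-429 (0.477) and miR-200c (0.476). miR-150 marks lymphocytes and the other two are epithelial. For miR-192 they were miR-2284ac (0.558), miR-191 (0.517) and miR-93 (0.499), and for miR-194 miR-3596 (0.539), miR-2435 (0.512) and miR-191 (0.511). For miR-204 they were miR-125a (0.711), let-7e (0.684) and miR-10a (0.679). For miR-215 they were miR-136 (0.802), miR-370 (0.738) and miR-30e-5p (0.720). miR-136 and miR-370 belong to the imprinted DLK1-DIO3 cluster. Among the members themselves, the other 9 of 10 pairs ran from −0.315 (miR-204 with miR-215) to 0.265 (miR-122 with miR-192). miR-122 had a correlation of 0.264 with miR-194, 0.110 with miR-215 and −0.174 with miR-204. miR-215 had −0.235 with miR-194 and −0.203 with miR-192. miR-204 had 0.239 with miR-194 and 0.0517 with miR-192.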

How the data were processed

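Total RNA came from a lipid tissue extraction kit (RNeasy), and the TruSeq RNA LT v2 kit was used for libraries, per the labels' protocols. The authors deposited whole-number counts per miRNA and library, and RPM values that equalled the count scaled to the library total (largest difference 4.79e-06). The submitters' processing notes name DESeq2 1.24.0 without saying what it did. Which aligner, miRNA caller and genome build were used is not given in the sources used here. A blank row held 0 counts and was left out.

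Counts were tested over the whole table with edgeR 4.0.16 in R 4.3.3 (filterByExpr, minimum count 10, TMM, robust quasi-likelihood, 30 residual degrees of freedom), two-sided, with Benjamini-Hochberg adjustment over 667 features and a threshold of 0.05. The SE is the log2 difference over the square root of F. log2 CPM used a prior count of 2. Counts of animals higher or lower compare means of log2 CPM within each animal. Alternatives were RLE factors, library totals, other filters, the animal as a block, library letter, limma 3.58.1 on log2(RPM + 1), DESeq2 1.42.0, counts summed per animal and class, miR-192 and miR-215 summed, and each animal or library left out. The class and perirenal tests were tried on simulated counts that held no animal effect, so that check does not bear on differences between animals. The labels name the same animals in every depot, so animals pair the libraries. The main fit of the depots held no term for the animal, which entered as a block in an alternative. Deviations from depot means correlated by 0.198 on average within an animal and −0.0392 between animals, and 64 of 90 pairs exceeded 0.1. No libraries agreed within sampling noise. Every member was named, with the 3 named miRNAs of highest Spearman correlation and the called members of the marker lists bearing on it. Members and lists were chosen with earlier results of these data known.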

Additional observations from a re-analysis of the deposited data

Results flagged for a closer look

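Within each depot, the highest and lowest library of each member were set against the other 5, over 30 groups of 6 libraries. For normally distributed values, chance flags about 1 in 20 such groups. The rate for skewed values such as those of miR-122, whose SD exceeded its mean in 5 of 6 depots, was not tested. A gap large for the depot's range was found in 6 cases, with values only and no cause tested. miR-122 stood apart in 3 libraries of animal 6: PRAT6 with 283 CPM (others 1.21 to 22.5), OAT6 with 29.8 CPM (others 0.0861 to 8.05) and PCAT6 with 10.1 CPM (others 0 to 1.32). miR-192 stood apart in PRAT2, with 1513 CPM (others 664 to 904). miR-194 was lowest in PRAT3, with 186 CPM (others 351 to 430). miR-215 stood apart in SSAT1, with 10.3 CPM (others 0.741 to 1.92).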

How the results depend on the processing

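The class differences of the 5 members, the perirenal difference of miR-122 and the sternal difference of miR-204 kept their sign under every alternative run. Uncalled depot differences near 0 could change sign: with the block, the perirenal difference of miR-215 went from −0.14 to 0.01. Other uncalled depot differences were not followed through every alternative. The number of members called between classes was 1, 2 with library totals alone, 0 with the animal as a replicate block and 0 with the block on counts summed by animal within each class. By limma it was also 1, but the called member was miR-192 and no longer miR-122. In back fat it was 0, and 1 by DESeq2. In sternal fat it was 1, 0 by limma and 2 by DESeq2. In pericardial fat it was 0, and 1 under a mean of at least 10 CPM, by limma and by DESeq2. In perirenal fat it was 1, and 2 with library totals, under that filter, by limma and by DESeq2. Across depots it was 2, 3 with library totals alone, 1 under the block, 1 among letter B libraries and 0 by limma. Between animals it was 1, 2 with RLE factors, under that filter and by DESeq2, and 0 among letter B libraries. Without the filter it stayed 1, with miR-194 called in place of miR-122. Leaving out each animal gave 0 to 2 across depots, 0 to 2 between animals, 0 to 1 between classes, in pericardial and in sternal fat, 1 to 2 in perirenal fat and 0 to 0 in back, inguinal and omental fat. Leaving out each library gave 1 to 2 across depots, between classes and in perirenal fat, 0 to 2 between animals, 0 to 1 in pericardial fat, 1 to 1 in sternal fat and 0 to 0 in the rest. The cause of these shifts was not tested. Over all features, 110 were called between classes, 71 with the letter as covariate, 39 among letter B libraries and 44 with counts summed. Low counts limit miR-122 outside perirenal fat and miR-215.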
